A study of Mus musculus with 6 samples.

Results

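The genes described here are 36 neuronal synapse and cytoskeleton genes, taken by name from a table of 24391 mouse genes. All 36 were listed in the table, and all 36 passed the filter on low counts that left 15937 genes for testing. They fall into 8 groups by known role, from the proteins that fuse synaptic vesicles with the cell membrane to the filaments and motors of the axon. RNA was sequenced from the atherosclerotic lesion of the brachiocephalic artery (read here from the abbreviation BCA in the labels), a branch of the aortic arch, in 6 mice. The KO group was 3 mice of genotype Col15a1 -/-, in which the gene for the α1 chain of type XV collagen was deleted. The WT group was 3 wild-type mice. Both groups had a C57BL/6 strain background and were on a Western diet for 18 weeks. The series title places the deletion in smooth muscle cells, while the labels give the genotype alone, and neither names a promoter that drives Cre, an age or an Apoe allele. The labels describe the tissue as a mixture of smooth muscle cells, epithelial cells, macrophages and others, and do not mention neurons or nerve.

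In a nerve terminal, a vesicle loaded with transmitter is docked, primed and fused with the plasma membrane when calcium enters. The fusion is carried out by SNARE proteins on vesicle and membrane, which zip together and are later pulled apart for reuse. The axon that leads there is held open by neuronal intermediate filaments and by bundled microtubules, along which kinesin motors carry vesicle precursors away from the cell body. The artery wall is supplied by sympathetic axons whose cell bodies lie in ganglia outside the vessel. Many neuronal genes carry an RE1 element, the binding site through which the repressor REST keeps neuronal genes off in other cells.

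Libraries held between 22223584 and 26982005 reads assigned to genes, and 18347 to 18761 genes had at least 1 read. Below, CPM is the count per 1000000 reads after scaling of the library sizes by the trimmed mean of M values (TMM). The deleted gene checked the labels: Col15a1 had 193, 198 and 90.97 CPM in KO 1, KO 2 and KO 3, against 574, 407 and 501 CPM in WT 1, WT 2 and WT 3, so that the KO libraries lay below the WT libraries without reaching 0. Among markers of the labelled cells, Myh11 (smooth muscle myosin) had 4290.4, 5669.8 and 2379 CPM in KO 1, KO 2 and KO 3, against 3801, 2193 and 3335 CPM in WT 1, WT 2 and WT 3. Its lowest libraries were KO 3 and WT 2, at 0.557 and 0.513 times the mean of the other 4, and Acta2 (smooth muscle actin) was 0.5302 times that mean in KO 3 and 0.556 times in WT 2. The smooth muscle markers were therefore low in the libraries in which the 36 genes were high, as was the endothelial gene Pecam1 (0.785 times in KO 3 and 0.544 times in WT 2). The macrophage gene Cd68 had 127, 93.6 and 26.9 CPM in KO 1, KO 2 and KO 3, against 141, 147 and 180.0 CPM in WT 1, WT 2 and WT 3, and C1qa was 0.445 times the mean of the other 4 in KO 3 and 1.33 times in WT 2. Of 2 epithelial markers, Epcam had 0.172 to 1.57 CPM in KO and 0.455 to 0.605 CPM in WT. Cdh1 had 8.99 CPM in KO 3 and 8.67 CPM in WT 2, against 1.47 to 6.196 CPM in the other 4, and was thus highest where the 36 genes were high. The part of these markers in the results was not tested. Ribosomal RNA counted as Rn45s took 6.77% to 10.4% of the counts in KO and 2.04% to 9.57% in WT, with both ends of the range in the libraries that stand apart below (10.4% in KO 3 and 2.04% in WT 2). Its part in the levels given below was not tested. Leaving Rn45s out of the library sizes moved the median log2 fold change of the 36 genes by less than 0.01. TMM trims genes with extreme ratios before scaling, so leaving out a single gene could hardly move this value. Under total counts, which are not trimmed, that median was 0.55 instead of 0.71. The median ratio of KO 3 to WT 2 was then 1.58 instead of 1.81.

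The 36 genes were high together in KO 3 and WT 2 and low together in KO 1, KO 2, WT 1 and WT 3. Their summed level was 1547, 1609 and 12209.5 CPM in KO 1, KO 2 and KO 3, against 1487, 7109.7 and 1561 CPM in WT 1, WT 2 and WT 3. One library of each genotype thus held several times the level of its 2 group mates. These genes made up 1.18% of all counts in KO 3 and 0.784% in WT 2, against 0.147% to 0.158% in the other 4 libraries. KO 3 was the highest library for 36 of 36 genes, and WT 2 the second highest for 35 of 36. Both libraries lay above the other 4 for those 35 genes, against 22.2% of all genes tested, and both exceeded the highest of the other 4 by more than 2-fold for 31 genes, against 5.74% of all genes tested. The exception to the first count was Stx1a. KO 3 and WT 2 had been set apart from the rest by their neuronal transcripts in earlier results on these same libraries, so this split is described and not tested. In RNA from whole tissue, more cells or axons of a type and more RNA per cell cannot be told apart.

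**Figure D1:**
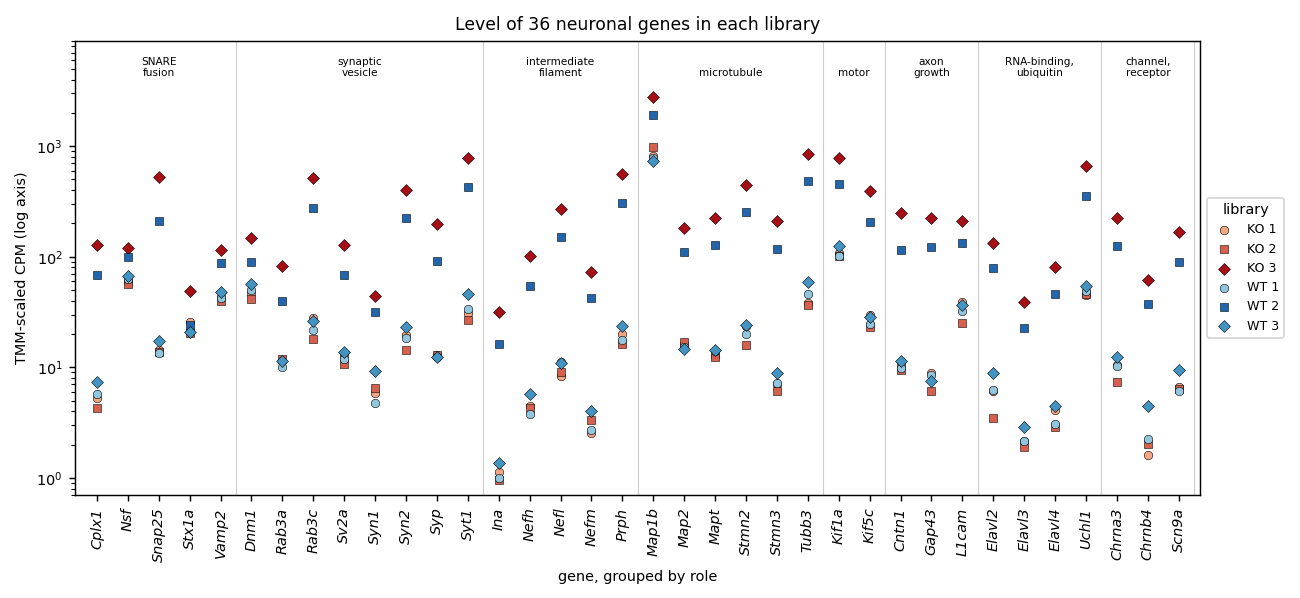
TMM-scaled CPM (log axis) of the 36 genes, grouped by role, with 1 point for each of the 6 libraries (KO in reds, WT in blues). KO 3 and WT 2 lie above the other 4 libraries for 35 genes, and the gap is narrow for Nsf, Stx1a, Vamp2, Dnm1 and Map1b.

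Relative to the mean of the other 4 libraries, the 36 genes had a median of 21.3-fold in KO 3 and 11.5-fold in WT 2. The medians over all genes tested were 1.002 in KO 3 and 0.979 in WT 2. In KO 3 the fold ran from 1.96 (Nsf) to 35.9 (Snap25), and in WT 2 from 1.09 (Stx1a) to 15.9 (Stmn3). A fold over 10 was reached by 27 of the 36 genes in KO 3 and 20 in WT 2, against 2.52% and 1.21% of all genes tested in those libraries.

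Of the 5 genes under 4-fold in KO 3 (Nsf, Stx1a, Vamp2, Dnm1 and Map1b), 3 were among the 5 with the highest level in the other 4 libraries. Measured per kilobase of exon (RPKM, which allows levels of different genes to be set side by side), the 5 genes with the highest mean in the other 4 libraries were Map1b (69.8), Uchl1 (42.5), Tubb3 (26.1), Vamp2 (20.1), Nsf (16.3). In KO 3 the order by RPKM was Uchl1 (576), Tubb3 (491), Prph (301), Map1b (237), Snap25 (235), Stmn2 (233), and in WT 2 it was Uchl1 (307), Tubb3 (282), Prph (164), Map1b (163), Stmn2 (133), Stmn3 (103). Uchl1 and Tubb3 thus led in both high libraries, while Map1b led in the low ones.

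**Figure D2:**
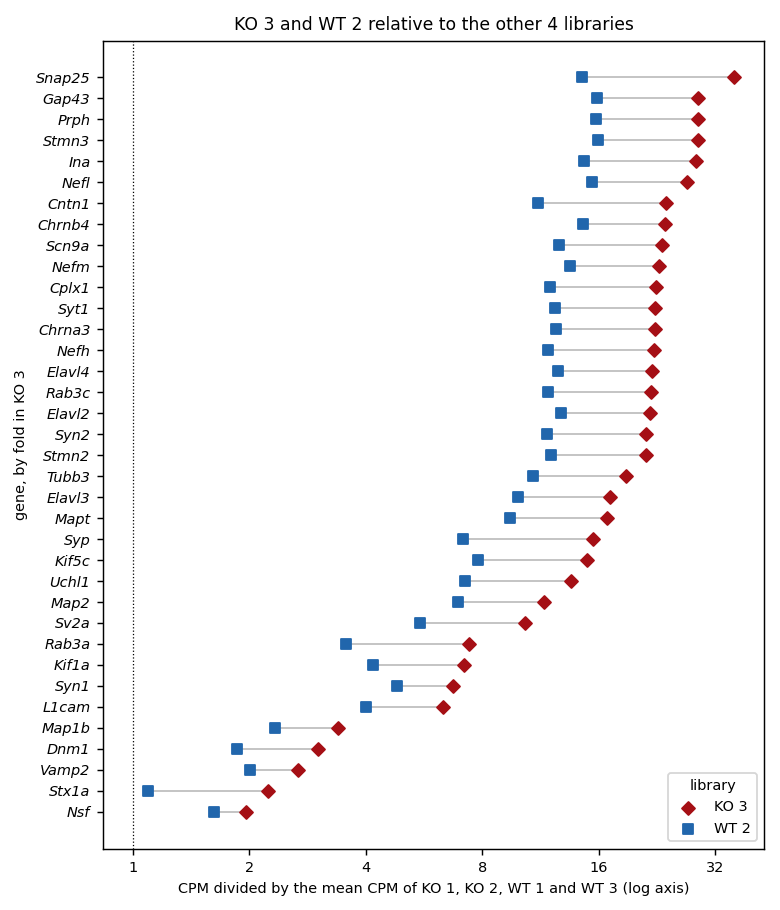
CPM of each gene in KO 3 and in WT 2 divided by the mean of KO 1, KO 2, WT 1 and WT 3 (log axis), ordered by the fold in KO 3, with 1 library per point and therefore no error bar. KO 3 lies to the right of WT 2 for all 36 genes, and 5 genes at the bottom stay under 4-fold in both libraries.

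The control region of some of these genes is shown because REST sites are a known common feature of neuronal genes. RefSeq windows (GRCm38.p6) from 250 bases before to 50 bases after a gene start were found for 28 of the 36 genes. They were searched on both strands for CAGCACC, then any 2 bases, then GGACAG, with up to 2 mismatches in these 13 letters. A match was found for 3 of the 28 genes (10.7%), against 2.22% of 27025 genes with a window. Some genes had several windows, and counted per window the share was 6.98% of 43, against 1.92% of 32851. The 3 genes were Syn1, Kif1a and Prph, with matches centred 223 bases before the gene start (Syn1), 20 bases after the gene start (Kif1a) and 165 bases before the gene start (Prph). Syn1 had 1 mismatch, Kif1a 2 and Prph 2. Snap25, Vamp2, Stmn2, Gap43, Mapt, Nefl, Nefm and Nefh had no window and were not searched. Each window is given 5′ to 3′ on the strand of its gene, with the match in capitals, for Syn1 (chrX:20920869-20921168, minus strand), Kif1a (chr1:93101825-93102124, minus strand) and Prph (chr15:99054924-99055223, plus strand).
Syn1: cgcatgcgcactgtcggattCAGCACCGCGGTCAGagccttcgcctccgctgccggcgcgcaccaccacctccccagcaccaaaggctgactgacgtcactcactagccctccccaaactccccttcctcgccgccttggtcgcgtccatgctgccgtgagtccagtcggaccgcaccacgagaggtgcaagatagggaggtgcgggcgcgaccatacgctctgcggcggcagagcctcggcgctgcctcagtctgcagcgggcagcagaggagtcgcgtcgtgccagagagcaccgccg
Kif1a: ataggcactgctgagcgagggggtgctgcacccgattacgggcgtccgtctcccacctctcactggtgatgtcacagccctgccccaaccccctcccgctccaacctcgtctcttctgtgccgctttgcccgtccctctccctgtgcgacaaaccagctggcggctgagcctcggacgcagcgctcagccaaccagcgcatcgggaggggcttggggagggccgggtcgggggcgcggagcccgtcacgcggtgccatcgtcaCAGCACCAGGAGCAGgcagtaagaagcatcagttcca
Prph: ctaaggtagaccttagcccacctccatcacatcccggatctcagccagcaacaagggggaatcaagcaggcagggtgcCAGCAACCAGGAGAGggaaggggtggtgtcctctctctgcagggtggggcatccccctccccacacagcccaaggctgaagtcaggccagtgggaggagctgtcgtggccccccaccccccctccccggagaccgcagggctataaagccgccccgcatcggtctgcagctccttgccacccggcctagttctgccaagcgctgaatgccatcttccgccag
A match in letters is a description and not a site shown to be bound. The 3 genes were unlike in level: in KO 3 they had 6.71-fold (Syn1), 7.17-fold (Kif1a) and 28.9-fold (Prph) the mean of the other 4 libraries.

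The 5 genes of the SNARE fusion machinery differed most among themselves, with a median of 2.67-fold in KO 3 and 2.005-fold in WT 2 over the other 4 libraries. Snap25 (mm9, chr2:136539186-136608164, plus strand) encodes the membrane SNARE that contributes a pair of helices to the fusion bundle. It had 14.2, 13.7 and 525 CPM in KO 1, KO 2 and KO 3, against 13.4, 212 and 17.1 CPM in WT 1, WT 2 and WT 3. KO 3 and WT 2 stood far above the 4 low libraries, which lay within 13.4 to 17.1 CPM, and the KO and WT ranges overlapped. The fold was 35.9-fold in KO 3 and 14.5-fold in WT 2, the highest of all 36 in KO 3. Cplx1, the complexin that clamps the partly zipped bundle, had 128 CPM in KO 3 and 67.8 CPM in WT 2, against 4.28 to 7.34 CPM in the other 4, which is 22.6-fold in KO 3 and 11.96-fold in WT 2. Stx1a (mm9, chr5:135499442-135526969, plus strand) encodes the partner SNARE on the plasma membrane. It had 25.8, 20.3 and 49.2 CPM in KO 1, KO 2 and KO 3, against 21.4, 24.1 and 20.8 CPM in WT 1, WT 2 and WT 3. Only KO 3 stood apart for this gene, since WT 2 lay below KO 1. Vamp2, the vesicle SNARE, had 116 CPM in KO 3 and 87.1 CPM in WT 2, against 40.02 to 48.4 CPM in the other 4. Nsf, the ATPase that takes spent SNARE bundles apart, had 119.8 CPM in KO 3 and 99.1 CPM in WT 2, against 56.1 to 67.3 CPM in the other 4. Both libraries were above the other 4 for Vamp2 and Nsf, but by no more than 2.67-fold for either gene. The 3 SNAREs that meet in 1 fusion bundle therefore had folds of 35.9, 2.67 and 2.23 in KO 3 (Snap25, Vamp2 and Stx1a). These folds depend on the mean level in the other 4 libraries, which was 6.53, 20.1 and 10.7 RPKM in the same order. The CPM above that mean in KO 3 was 510, 72.4 and 27.2.

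Synaptic vesicle proteins had a median of 12.9-fold in KO 3 and 6.33-fold in WT 2. Syt1 (mm9, chr10:107934706-108448031, minus strand), the calcium sensor that triggers fusion, had 31.2, 26.9 and 776 CPM in KO 1, KO 2 and KO 3, against 33.97, 426 and 46.1 CPM in WT 1, WT 2 and WT 3. Both high libraries exceeded the other 4 by an order of magnitude, by 22.4-fold in KO 3 and 12.3-fold in WT 2. Syp (mm9, chrX:7215706-7230382, plus strand), an abundant membrane protein of small vesicles, had 12.9, 13.05 and 196 CPM in KO 1, KO 2 and KO 3, against 12.5, 90.8 and 12.4 CPM in WT 1, WT 2 and WT 3. The 4 low libraries differed little for Syp, within 12.4 to 13.05 CPM, and the fold was 15.4-fold in KO 3 and 7.15-fold in WT 2. Of the synapsins, which tether vesicles to the cytoskeleton, Syn2 had 402 CPM in KO 3 and 222 CPM in WT 2, against 14.3 to 23.4 CPM in the other 4. Syn1, whose promoter window held a match, had 44.1 CPM in KO 3 and 31.7 CPM in WT 2, against 4.77 to 9.24 CPM in the other 4. Rab3c, a small GTPase of secretory vesicles, had 516 CPM in KO 3 and 279 CPM in WT 2, against 18.2 to 28.1 CPM in the other 4. Its relative Rab3a had 82.5 CPM in KO 3 and 39.9 CPM in WT 2, against 10.004 to 11.9 CPM in the other 4. The paralogs within this group were thus unlike in fold, at 21.3 for Syn2 and 6.71 for Syn1 in KO 3, and at 21.9 for Rab3c and 7.38 for Rab3a. Sv2a, a vesicle glycoprotein that binds synaptotagmin, had 127 CPM in KO 3 and 67.9 CPM in WT 2, against 10.8 to 13.6 CPM in the other 4. Dnm1, the neuronal dynamin that pinches off vesicles during endocytosis, had 146 CPM in KO 3 and 90.01 CPM in WT 2, against 41.5 to 56.5 CPM in the other 4, the lowest fold of this group (3.01-fold in KO 3 and 1.85-fold in WT 2).

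Neuronal intermediate filaments had similar folds, with all 5 genes between 22.2-fold and 28.9-fold in KO 3 and between 11.8-fold and 15.7-fold in WT 2. Prph (mm9, chr15:98885605-98889409, plus strand), peripherin, is the filament protein typical of peripheral neurons and had 19.9, 16.1 and 561 CPM in KO 1, KO 2 and KO 3, against 17.8, 305 and 23.7 CPM in WT 1, WT 2 and WT 3. Nefl (mm9, chr14:68701941-68705794, plus strand), the neurofilament light chain on which the heavier chains assemble, had 8.28, 9.03 and 268 CPM in KO 1, KO 2 and KO 3, against 11.3, 152 and 10.9 CPM in WT 1, WT 2 and WT 3. For both genes the 4 low libraries lay close together, far under KO 3 and WT 2. The medium chain Nefm had 72.5 CPM in KO 3 and 42.7 CPM in WT 2, against 2.54 to 4.06 CPM in the other 4. Nefh, the heavy chain of large axons, had 101 CPM in KO 3 and 53.9 CPM in WT 2, against 3.77 to 5.68 CPM in the other 4. Ina, α-internexin, had 31.8 CPM in KO 3 and 16.3 CPM in WT 2, against 0.96002 to 1.35 CPM in the other 4, the lowest level per kilobase among the filament genes in KO 3 (14.1 RPKM, against 301 RPKM for Prph).

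Microtubule genes had a median of 17.8-fold in KO 3 and 10.1-fold in WT 2. Tubb3 (mm9, chr8:125935464-125945910, plus strand), the β-tubulin of neurons, had 38.4, 36.3 and 845 CPM in KO 1, KO 2 and KO 3, against 46.3, 487 and 58.9 CPM in WT 1, WT 2 and WT 3. KO 1 and KO 2 were both below WT 1 and WT 3, and KO 3 and WT 2 were 18.8 and 10.8 times the mean of those 4. Stmn2 (mm9, chr3:8509527-8561604, plus strand), which binds tubulin dimers in growing axons, had 23.6, 15.8 and 444 CPM in KO 1, KO 2 and KO 3, against 20.01, 252 and 24.1 CPM in WT 1, WT 2 and WT 3. Its relative Stmn3 had 212 CPM in KO 3 and 117 CPM in WT 2, against 6.07 to 8.89 CPM in the other 4, the highest fold of all 36 genes in WT 2 (15.9). Map1b (mm9, chr13:100191419-100286557, minus strand), a microtubule-binding protein of developing and regenerating axons, had 823, 974 and 2809.8 CPM in KO 1, KO 2 and KO 3, against 783, 1926 and 729.8 CPM in WT 1, WT 2 and WT 3. This was the gene with the highest level of the 36 per kilobase in the 4 low libraries, and its fold was 3.39-fold in KO 3 and 2.33-fold in WT 2. Map2, the dendritic microtubule protein, had 183 CPM in KO 3 and 109.6 CPM in WT 2, against 14.7 to 16.97 CPM in the other 4. Mapt, tau, the axonal one, had 226 CPM in KO 3 and 127 CPM in WT 2, against 12.5 to 14.4 CPM in the other 4. The RNAs of the dendritic and the axonal microtubule protein were therefore both high in KO 3 and WT 2, by 11.6-fold (Map2) and 16.9-fold (Mapt) in KO 3. Sequences of β-tubulin genes are alike, and reads that map to several places were not counted, so the level of Tubb3 is uncertain.

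The motors and the genes of axon growth followed. Kif1a (mm9, chr1:94912032-94998451, minus strand), the kinesin that carries synaptic vesicle precursors and another gene with a promoter match, had 109, 102 and 781 CPM in KO 1, KO 2 and KO 3, against 101, 454 and 125 CPM in WT 1, WT 2 and WT 3. Kif5c, a neuronal heavy chain of conventional kinesin, had 396 CPM in KO 3 and 207 CPM in WT 2, against 23.04 to 29.9 CPM in the other 4. Both motors had a wide gap between the high and the low libraries, wider for Kif5c (14.9-fold in KO 3 and 7.802-fold in WT 2) than for Kif1a (7.17-fold in KO 3 and 4.17-fold in WT 2). Gap43 (mm9, chr16:42248674-42340764, minus strand), the growth-cone protein GAP-43, had 8.84, 6.15 and 225 CPM in KO 1, KO 2 and KO 3, against 8.504, 123 and 7.57 CPM in WT 1, WT 2 and WT 3. Cntn1, the adhesion protein contactin-1 on axons, had 248 CPM in KO 3 and 116 CPM in WT 2, against 9.51 to 11.4 CPM in the other 4. L1cam, an adhesion protein of axons that also occurs outside neurons, had 211 CPM in KO 3 and 133 CPM in WT 2, against 25.1 to 38.8 CPM in the other 4, 6.35-fold in KO 3 and 4.001-fold in WT 2 over the other 4.

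Among RNA-binding and ubiquitin proteins, Uchl1 (mm9, chr5:67067360-67078473, plus strand), the abundant neuronal deubiquitinase known as PGP9.5, had 44.9, 46.5 and 661 CPM in KO 1, KO 2 and KO 3, against 49.5, 352 and 54.02 CPM in WT 1, WT 2 and WT 3. Elavl4 (mm9, chr4:109876342-110024516, minus strand), the neuronal RNA-binding protein HuD, had 4.14, 2.88 and 79.96 CPM in KO 1, KO 2 and KO 3, against 3.05, 45.6 and 4.44 CPM in WT 1, WT 2 and WT 3. Its levels in the 4 low libraries were only a few CPM, and KO 3 and WT 2 were 22.04 and 12.6 times their mean. Elavl2 had 135 CPM in KO 3 and 79.1 CPM in WT 2, against 3.49 to 8.85 CPM in the other 4. Elavl3, of the same Hu family, had 38.8 CPM in KO 3 and 22.5 CPM in WT 2, against 1.92 to 2.86 CPM in the other 4. Channels and receptors had a median of 23.4-fold in KO 3 and 12.6-fold in WT 2. Chrna3 (mm9, chr9:54859150-54874366, minus strand), the α3 subunit of the nicotinic receptor through which autonomic ganglia receive their input, had 10.5, 7.42 and 226 CPM in KO 1, KO 2 and KO 3, against 10.2, 125 and 12.3 CPM in WT 1, WT 2 and WT 3. Chrnb4, the β4 subunit that pairs with α3, had 61.2 CPM in KO 3 and 37.5 CPM in WT 2, against 1.595 to 4.48 CPM in the other 4. Scn9a, the sodium channel Nav1.7 of sympathetic and sensory neurons, had 166 CPM in KO 3 and 90.01 CPM in WT 2, against 6.05 to 9.43 CPM in the other 4. All 3 were thus at 12.3 CPM or less in each of the 4 low libraries.

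KO 3 exceeded WT 2 for all 36 genes, against 61.3% of all genes tested. The ratio of KO 3 to WT 2 had a median of 1.81 over the 36 genes, and the middle 50% lay between 1.701 and 1.88. Its median over all genes tested was 1.09. With 1 library on each side there is no replicate check, and the exact 95% intervals given here (Clopper-Pearson, on the reads of these 2 libraries) cover counting error only. Snap25 had the highest ratio, 2.48 (95% interval 2.41 to 2.56). Syp had 2.16 (95% interval 2.06 to 2.26), Cntn1 had 2.14 (95% interval 2.06 to 2.23), Rab3a had 2.07 (95% interval 1.93 to 2.22) and Stx1a had 2.04 (95% interval 1.86 to 2.24). These 5 were the genes with a ratio over 2. Nsf had the lowest, 1.21 (95% interval 1.15 to 1.27), followed by Vamp2 with 1.33 (95% interval 1.26 to 1.403) and Syn1 with 1.39 (95% interval 1.27 to 1.52). The interval lay wholly above the median ratio for 7 genes and wholly below it for 11, so the genes did not share a single ratio within counting error.

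After the mean of the other 4 libraries was taken from both, the ratio of KO 3 to WT 2 had a median of 1.88 and the middle 50% between 1.81 and 2.02. It lay between 1.7 and 2.1 for 26 of the 36 genes. Map1b, with the high level in the 4 low libraries, had 1.805 by this measure and 1.46 without the subtraction. Snap25 had 2.59 and Rab3a 2.49, still above the bulk of the genes, and Syn1 had the lowest value, 1.49. Stx1a gave 13.2, a quotient with a denominator of only 2.05 CPM.

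Among the 4 low libraries, KO 1 and KO 2 had slightly lower values than WT 1 and WT 3 for most of the 36 genes. The ratio of their means had a median of 0.885 over the 36 genes, against 1.01 over all genes tested. It was lowest for Chrnb4 (0.537), Elavl2 (0.638), Tubb3 (0.70998), Syt1 (0.725) and Cplx1 (0.727). The ratio exceeded 1 for 5 genes, Map1b (1.19), Map2 (1.11), Rab3a (1.098), Stx1a (1.09) and Syp (1.04). KO 1 and KO 2 were both below WT 1 and WT 3 for 11 of the 36 genes, against 20.0% of all genes tested, and both above for 4, against 20.5%. WT 3 was the highest of the 4 for 26 genes and KO 2 the lowest for 23.

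**Figure D3:**
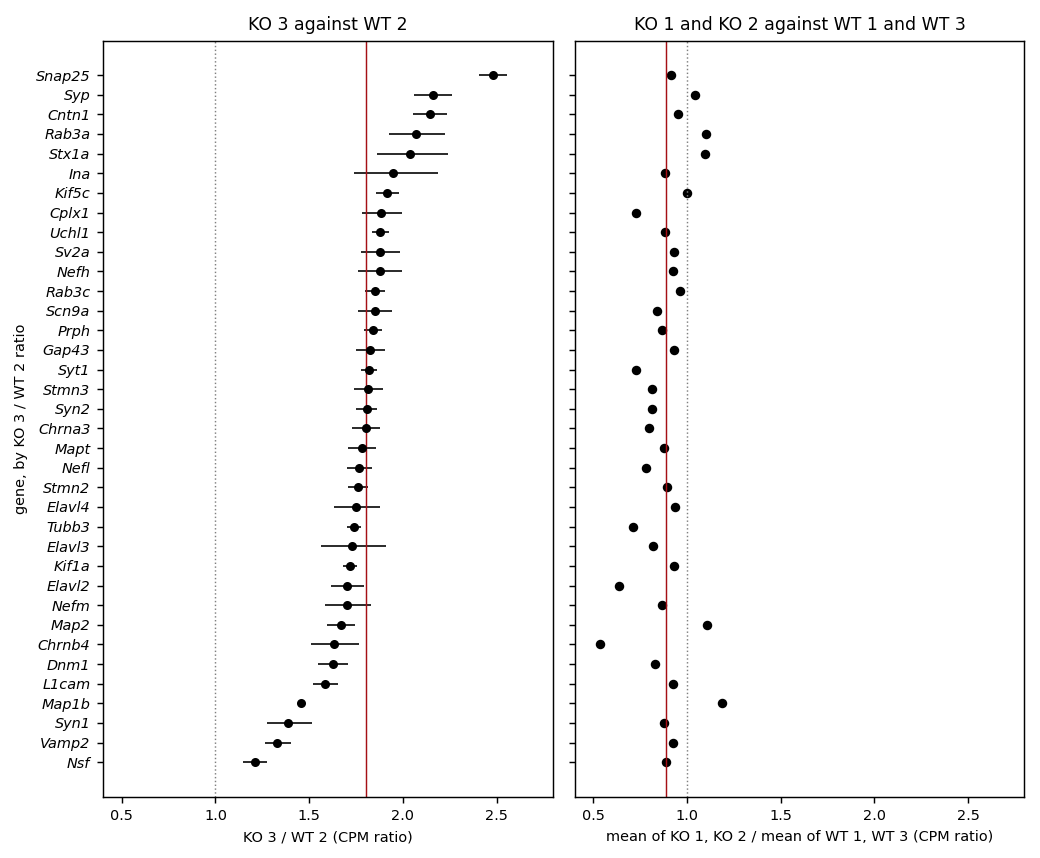
Ratio of CPM in KO 3 to WT 2 (left, bars are exact 95% intervals for counting error) and ratio of the mean of KO 1 and KO 2 to the mean of WT 1 and WT 3 (right, n = 2 libraries each, no bars), for each of the 36 genes. The dotted line marks 1 and the red line the median. All 36 ratios lie above 1 on the left, and 31 of 36 lie below 1 on the right.

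The comparison the study was built for is KO against WT over all 6 libraries. For these 36 genes 1 library on each side lay far above its group mates. The KO and WT libraries overlapped for all 36 genes, where 16.7% of all genes tested had groups that did not overlap. No member was called, higher or lower, at an adjusted p under 0.05 by edgeR's quasi-likelihood test with Benjamini-Hochberg adjustment, and the share called among all genes was 0% higher and 0% lower. The lowest adjusted p of any gene was 0.587. An unadjusted p under 0.05 was reached by 0 of the 36 genes, against 4.02% of all genes higher in KO and 3.98% lower. DESeq2 called 0.221% of genes higher and 0.201% lower, 63 genes in all, with 0 of the 9 members to which it gave an adjusted p. It returned none for the other 27.

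The fitted log2 fold change of KO over WT was positive for 36 of 36 genes, against 9701 of all 15937 genes tested. Its median was 0.71 over the 36 genes, against 0.068 over all genes tested. It ran from 0.036 (Nsf) to 1.19 (Snap25). Snap25 averaged 184 ± 295 CPM in KO and 80.7 ± 113 CPM in WT (SD, n = 3 each), with a log2 fold change of 1.19 (SE 1.74, adjusted p = 0.912). Stx1a averaged 31.8 ± 15.4 CPM in KO and 22.1 ± 1.77 CPM in WT (SD, n = 3 each), with a log2 fold change of 0.52 (SE 0.33, adjusted p = 0.743). The standard deviation of Snap25 was larger than its mean in both groups, and Stx1a, for which WT 2 did not stand out, had a small spread in WT. Syt1 averaged 278 ± 431 CPM in KO and 169 ± 223 CPM in WT (SD, n = 3 each), with a log2 fold change of 0.72 (SE 1.59, adjusted p = 0.924). Syp averaged 74.01 ± 106 CPM in KO and 38.6 ± 45.3 CPM in WT (SD, n = 3 each), with a log2 fold change of 0.94 (SE 1.35, adjusted p = 0.912). For these vesicle proteins too the difference between the group means was smaller than the spread within either group.

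Filament and microtubule genes gave the same picture. Prph averaged 199 ± 313 CPM in KO and 116 ± 164 CPM in WT (SD, n = 3 each), with a log2 fold change of 0.78 (SE 1.70, adjusted p = 0.924). Nefl averaged 95.1 ± 149.8 CPM in KO and 57.9 ± 81.1 CPM in WT (SD, n = 3 each), with a log2 fold change of 0.71 (SE 1.67, adjusted p = 0.924). Neither filament gene separated the groups. Tubb3 averaged 307 ± 466 CPM in KO and 197 ± 251 CPM in WT (SD, n = 3 each), with a log2 fold change of 0.64 (SE 1.51, adjusted p = 0.924). Map1b averaged 1536 ± 1106 CPM in KO and 1146 ± 676 CPM in WT (SD, n = 3 each), with a log2 fold change of 0.42 (SE 0.62, adjusted p = 0.912). Map1b had the narrower spread relative to its mean of these microtubule genes and still missed the threshold. Stmn2 averaged 161 ± 245 CPM in KO and 98.9 ± 133 CPM in WT (SD, n = 3 each), with a log2 fold change of 0.70 (SE 1.56, adjusted p = 0.924). Kif1a, the motor, averaged 331 ± 390.4 CPM in KO and 227 ± 198 CPM in WT (SD, n = 3 each), with a log2 fold change of 0.54 (SE 1.00, adjusted p = 0.924). Standard errors were large for both.

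Gap43 averaged 80.05 ± 126 CPM in KO and 46.5 ± 66.6 CPM in WT (SD, n = 3 each), with a log2 fold change of 0.78 (SE 1.69, adjusted p = 0.924). Uchl1 averaged 251 ± 355 CPM in KO and 152 ± 173 CPM in WT (SD, n = 3 each), with a log2 fold change of 0.72 (SE 1.32, adjusted p = 0.924). In both the KO mean was set by KO 3 and the WT mean by WT 2. Elavl4 averaged 28.99 ± 44.1 CPM in KO and 17.7 ± 24.2 CPM in WT (SD, n = 3 each), with a log2 fold change of 0.71 (SE 1.57, adjusted p = 0.924). Chrna3 averaged 81.2 ± 125 CPM in KO and 49.2 ± 65.8 CPM in WT (SD, n = 3 each), with a log2 fold change of 0.72 (SE 1.58, adjusted p = 0.924). The adjusted p over all 36 genes lay between 0.743 and 0.979. These p-values do not show that the levels were alike, since 1 high library of 3 on each side leaves the group difference poorly determined. Without KO 3 the median log2 fold change of the 36 genes was -2.26, and without WT 2 it was 2.68, so the direction rested on those libraries.

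Without both KO 3 and WT 2, 2 libraries a group were left. The log2 fold change was then negative for 31 of the 36 genes, against 7831 of all 15831 genes tested. Its median was -0.19 over the 36 genes, against 0.0026 over all genes tested. It ran from -0.91 (Chrnb4) to 0.24 (Map1b). edgeR called 0 of the 36 genes higher, against 0% of all genes, and 0 lower, against 0.00632% of all genes, which was 1 gene, Gbp2b, an interferon-induced guanylate-binding protein. An unadjusted p under 0.05 was reached by 2 of the 36 genes lower in KO, Tubb3 and Syt1, against 5.84% of all genes, and by 0 higher, against 4.35%. Tubb3 had a log2 fold change of -0.50 (SE 0.15, adjusted p = 0.352), and Syt1 had -0.47 (SE 0.18, adjusted p = 0.436).

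Each of 14 members was set beside a paralog that is expressed in many cell types. The 14 members had medians of 14.3-fold in KO 3 and 7.19-fold in WT 2 over the other 4 libraries, and their 14 paralogs had 1.05-fold in KO 3 and 0.958-fold in WT 2. Snap23, the SNARE that takes the place of Snap25 outside neurons, was 0.562 times the mean of the other 4 in KO 3 and 0.909 times in WT 2. Vim, vimentin, the filament of mesenchymal cells set beside Nefl, was 0.554 times the mean of the other 4 in KO 3 and 0.777 times in WT 2. Stx4a, set beside Stx1a, was 0.827 times the mean of the other 4 in KO 3 and 0.903 times in WT 2. Vamp3, set beside Vamp2, was 0.939 times the mean of the other 4 in KO 3 and 1.04 times in WT 2. These paralogs of the fusion machinery stayed near or below the level of the 4 low libraries where Snap25 and Vamp2 were high. The 3 paralogs named next exceeded 2-fold in KO 3. Stmn1, set beside Stmn2, was 5.99 times the mean of the other 4 in KO 3 and 3.601 times in WT 2. Kif1b, set beside Kif1a, was 3.04 times the mean of the other 4 in KO 3 and 1.96 times in WT 2. Tubb5, set beside Tubb3, was 2.06 times the mean of the other 4 in KO 3 and 1.63 times in WT 2. A fold depends on the level in the other 4 libraries, so the CPM above their mean is given too. In KO 3 it was 687 for Kif1b and 672 for Kif1a. It was 315 for Tubb5 and 800 for Tubb3, and 62.6 for Stmn1 and 423 for Stmn2. Of the 14 paralogs, 7 lay below that mean in KO 3. Whether expression of Stmn1, Kif1b and Tubb5 in neurons had a part in their levels was not tested. Kif5b, Dnm2, Sypl, Map4, Uchl3, Rab27a and Elavl1 lay between 0.7596 (Dnm2) and 1.81 (Rab27a) times the mean in KO 3.

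Per kilobase of exon, the widely expressed paralog was above the neuronal gene in the mean of the 4 low libraries for 12 of 14 pairs. The neuronal gene was the higher of the pair in 10 of 14 pairs in KO 3 and 8 of 14 in WT 2. Snap25 had 235 RPKM in KO 3 and 94.6 RPKM in WT 2, against a mean of 6.53 RPKM in the other 4. Snap23 had 20.8 RPKM in KO 3 and 33.7 RPKM in WT 2, against a mean of 37.1 RPKM in the other 4. The order of the 2 SNAREs thus turned between the low and the high libraries. Uchl1, with 576 RPKM in KO 3 and 307 RPKM in WT 2, against a mean of 42.5 RPKM in the other 4, was above Uchl3 in every library, since Uchl3 had 10.05 RPKM in KO 3 and 7.26 RPKM in WT 2, against a mean of 8.12 RPKM in the other 4.

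**Figure D4:**
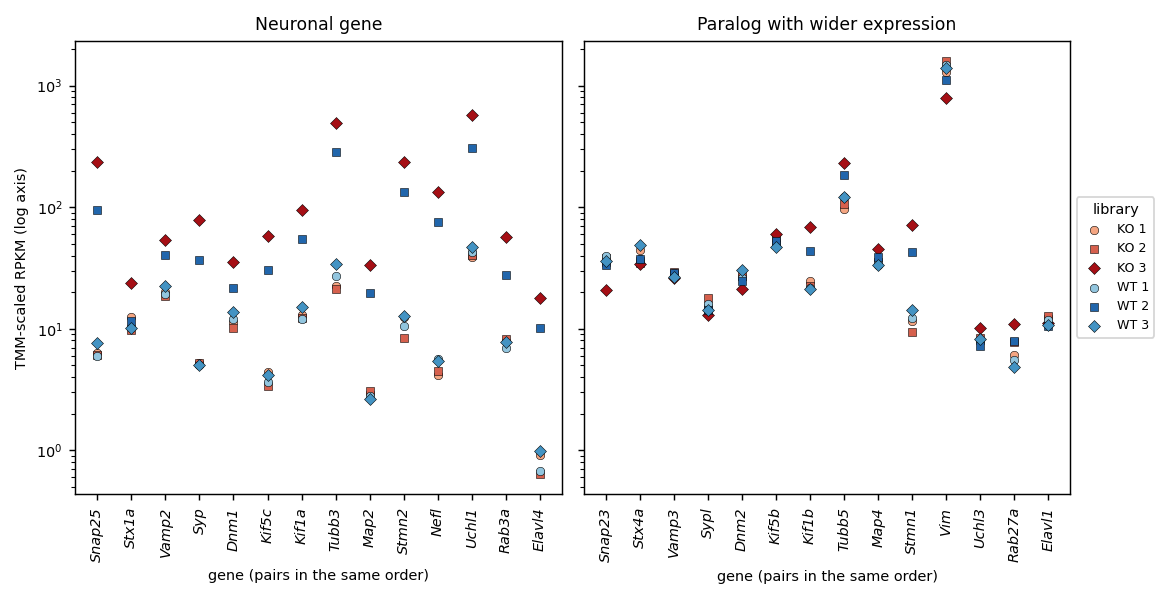
TMM-scaled RPKM (log axis) of 14 neuronal genes (left) and of the widely expressed paralog of each in the same order (right), with 1 point per library (KO in reds, WT in blues). On the left KO 3 and WT 2 lie apart from the other 4 libraries for nearly all genes, and on the right the 6 libraries lie close together except for Stmn1, Kif1b, Tubb5 and a few others.

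Other genes of the same pathways, from lists that do not overlap the 36, were high in the same libraries. Of all genes tested, 22.2% lay above the other 4 in both libraries, and 5.74% did so by over 2-fold. Of 33 other synaptic release genes, 30 were higher in both KO 3 and WT 2 than in the other 4 libraries, 23 of them by over 2-fold, and 0 of the 32 tested were called between KO and WT. Syt4, a synaptotagmin of secretory vesicles, had 561 CPM in KO 3 and 283 CPM in WT 2, against 12.8 to 21.4 CPM in the other 4. Napb, the brain form of the NSF attachment protein, had 443 CPM in KO 3 and 233 CPM in WT 2, against 21.1 to 25.4 CPM in the other 4. Cplx2, a second complexin, had 352 CPM in KO 3 and 264 CPM in WT 2, against 32.4 to 45.4 CPM in the other 4. Unc13b, Synpr and Cadps2 were the 3 that were not above the other 4 in both libraries. Of 29 other neuronal cytoskeleton genes, 27 were higher in both, 21 of them by over 2-fold, and 0 of the 28 tested were called. The α-tubulin Tuba1a, whose near-identical paralogs make its counts uncertain, had 1166 CPM in KO 3 and 642 CPM in WT 2, against 129 to 160.1 CPM in the other 4. Ank2, an ankyrin that anchors membrane proteins to spectrin, had 682 CPM in KO 3 and 399 CPM in WT 2, against 94.2 to 161 CPM in the other 4. Dpysl3, a growth-cone protein, had 638 CPM in KO 3 and 519 CPM in WT 2, against 271 to 392 CPM in the other 4. Kif21b and Ncam1 were the exceptions.

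Markers of neuron classes and of nerve differed in whether they were high where the 36 genes were high, and their part in the levels above was not tested. The counts given for each list stand beside 22.2% of all genes tested that lay above the other 4 libraries in both KO 3 and WT 2. The 10 genes that identify sympathetic neurons summed to 5971 CPM in KO 3 and 3083 CPM in WT 2, against 208 to 326 CPM in the other 4. All 10 were above the other 4 libraries in both KO 3 and WT 2. Slc6a2, the noradrenaline transporter, had 2456 CPM in KO 3 and 1491 CPM in WT 2, against 86.8 to 153 CPM in the other 4. Dbh, which makes noradrenaline, had 977 CPM in KO 3 and 479.9 CPM in WT 2, against 27.8 to 52.6 CPM in the other 4. Th, which catalyses the first step of that synthesis, had 859 CPM in KO 3 and 304 CPM in WT 2, against 17.8 to 27.3 CPM in the other 4. The ratio of KO 3 to WT 2 was 1.65 (95% interval 1.63 to 1.67) for Slc6a2, 2.04 (95% interval 1.99 to 2.08) for Dbh and 2.82 (95% interval 2.75 to 2.89) for Th. The median of the 36 genes, 1.81, lies between the values of the transporter and of the 2 enzymes.

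Schwann cells wrap axons, and 9 of their genes summed to 543 CPM in KO 3 and 386 CPM in WT 2, against 212 to 276 CPM in the other 4. Of these, 7 were above the other 4 in both libraries and 2 by over 2-fold. The myelin protein gene Pmp22 had 255 CPM in KO 3 and 196 CPM in WT 2, against 133 to 154 CPM in the other 4. Cdh19, a cadherin of Schwann cells, had 102 CPM in KO 3 and 57.8 CPM in WT 2, against 13.02 to 53.04 CPM in the other 4. Mbp, which encodes another myelin protein, had 70.3 CPM in KO 3 and 53.9 CPM in WT 2, against 30.6 to 42.5 CPM in the other 4. The summed Schwann cell level thus stood less far above the other 4 libraries than that of the 36 genes, although Pmp22 made the largest part of it. The median fold per Schwann cell gene was 2.14 in KO 3 and 1.54 in WT 2. For the 36 genes it was 21.3 in KO 3 and 11.5 in WT 2. Chromaffin cell genes summed to 520.2 CPM in KO 3 and 230.3 CPM in WT 2, against 32.7 to 63.1 CPM in the other 4, and 3 of 5 were above the other 4 in both libraries. Chgb, a granule protein that sympathetic neurons also make, had 233 CPM in KO 3 and 130.4 CPM in WT 2, against 13.2 to 28.5 CPM in the other 4. Scg2, of the same family, had 209.6 CPM in KO 3 and 65.7 CPM in WT 2, against 5.87 to 11.5 CPM in the other 4. Chga, another granule protein, had 66.9 CPM in KO 3 and 26.7 CPM in WT 2, against 4.17 to 10.4 CPM in the other 4. Pnmt, which makes adrenaline and defines chromaffin cells, stayed under 1 CPM in all 6 libraries.

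Sensory neuron genes summed to 231 CPM in KO 3 and 116 CPM in WT 2, against 10.2 to 14.6 CPM in the other 4, and 2 of 6 were above the other 4 in both libraries. Nearly all of that level came from Avil. This gene of an actin-binding protein had 229 CPM in KO 3 and 115 CPM in WT 2, against 8.902 to 13.7 CPM in the other 4. The peptide genes Calca and Tac1 stayed under 0.4 CPM in every library, Scn10a and Mrgprd did as well, and Trpv1 had 1.42, 0.873 and 1.26 CPM in KO 1, KO 2 and KO 3, against 1.05, 0.773 and 0.696 CPM in WT 1, WT 2 and WT 3. Cholinergic markers summed to 1.46 CPM in KO 3 and 2.76 CPM in WT 2, against 0.262 to 0.733 CPM in the other 4, and 2 of 3 were above the other 4 in both libraries. Slc5a7, the choline transporter, had 1.18 CPM in KO 3 and 2.49 CPM in WT 2, against 0.262 to 0.696 CPM in the other 4. Slc18a3, which loads acetylcholine into vesicles, had 6 counts in KO 3 and 8 in WT 2, against 0 to 2 in the other 4. Chat, which makes acetylcholine, had 0 counts in 4 of the 6 libraries and 1 count in KO 1 and KO 3. Markers of central neurons and glia summed to 10.2 CPM in KO 3 and 7.87 CPM in WT 2, against 2.85 to 6.37 CPM in the other 4, and 1 of 9 was above the other 4 in both libraries. Gfap, an astrocyte filament protein, had 2.21 CPM in KO 3 and 5.14 CPM in WT 2, against 1.595 to 2.86 CPM in the other 4. Aqp4, a water channel of astrocytes, had 5.05 CPM in KO 3 and 1.61 CPM in WT 2, against 0.517 to 3.97 CPM in the other 4. Gad2, which makes the transmitter GABA, had 56 counts in KO 3 and 18 in WT 2, against 0 to 2 in the other 4, and was the central marker above the other 4 in both.

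**Figure D5:**
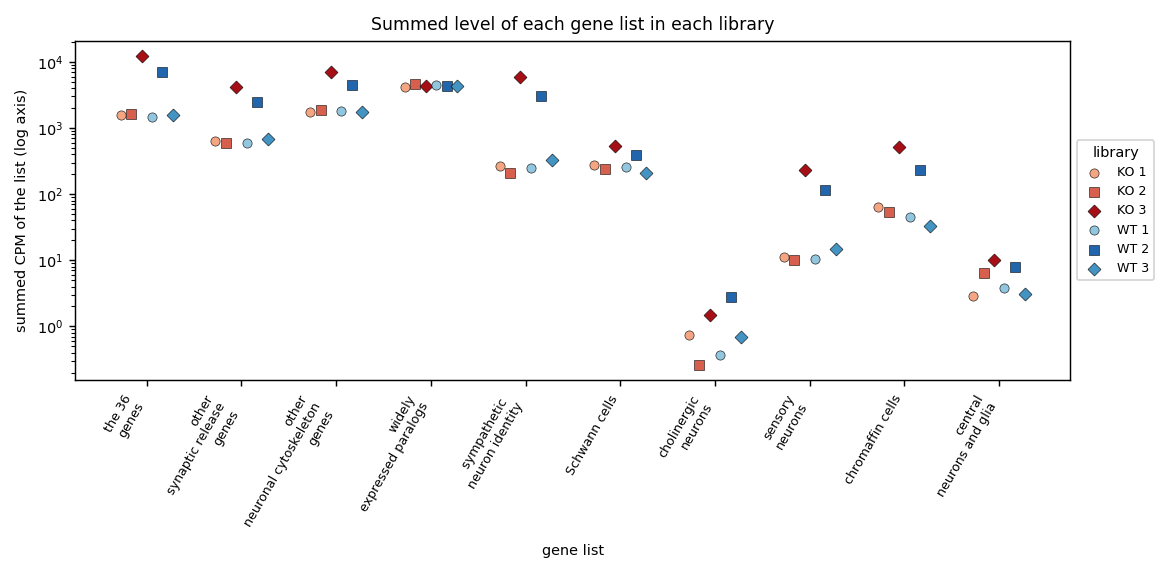
Summed CPM (log axis) of the 36 genes and of each comparison list, with 1 point per library (KO in reds, WT in blues). KO 3 and WT 2 lie above the other 4 libraries for the 36 genes (12209.5 and 7109.7 CPM, against 1487 to 1609 CPM). The gap between sums is wider for the sympathetic list (5971 and 3083 CPM, against 208 to 326 CPM). Map1b alone makes 729.8 to 974 CPM of the low sums of the 36 genes. Per gene, the median fold is similar in the 2 lists. It is 21.3 in KO 3 and 11.5 in WT 2 for the 36 genes. For the sympathetic list it is 21.99 in KO 3 and 11.13 in WT 2. The Schwann cell list has a small gap, and the widely expressed paralogs have none.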

How the data were processed

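Total RNA of 6 brachiocephalic artery lesions (3 KO, 3 WT) was sequenced on Illumina instruments. The values are raw read counts per gene that the authors deposited, made with featureCounts 1.4.6-p4 on exons of UCSC mm9 genes, per the file headers. Those headers record no strand or multi-mapping option. Multi-mapping left 29.9% to 33.4% of alignments unassigned, and ambiguity between genes left 0.347% to 0.448% unassigned. Reads shared by near-identical or overlapping genes were therefore dropped. Per the submitters' processing notes, CASAVA, STAR 3.0, Subread and DESeq2 were also used. Of all alignments, 32.6% to 36.9% were assigned to a gene.

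Counts were scaled by TMM to CPM, and divided by exon length to RPKM. KO and WT were compared over all genes with edgeR 4.0.16 in R 4.3.3 (quasi-likelihood test, filterByExpr with a minimum count of 10, Benjamini-Hochberg adjustment, threshold 0.05). The code was tried on simulated counts in which no library stood apart, so that trial does not cover the split seen here. DESeq2 1.42.0, limma 3.58.1 (voom), other scalings and filters and left-out libraries were alternatives. No 2 libraries of a group had counts that agreed within sampling noise (chi-square per degree of freedom of 30.4 or more). The series design gives 3 animals per group.

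The 36 genes, their role lists, the 14 genes with full statistics and the comparison and marker lists were chosen with earlier results of these data known. All 36 are named, and of each other list the 3 genes with the highest CPM in any library, as well as any called. Exceptions to a count and further marker genes at low levels were named after their values were seen. Intervals cover counting error only. Protein sequences were not used here. A few list genes are not reported here and were left out of the sums.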

Additional observations from a re-analysis of the deposited data

How the results depend on the processing

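The count of 0 genes called between KO and WT held under every other scaling, the changed filters, limma-voom, the replicate block and each left-out library, but DESeq2 called 63 genes, and 1 gene was called without WT 2 and KO 3. No setting called any of the 36 genes, but DESeq2 gave an adjusted p to only 9 of them. Their median log2 fold change, 0.71 with all libraries, was 0.67 under DESeq2's size factors, 0.55 under total counts, 0.14 under limma-voom and 0.14 with the replicate block, and ranged from -2.26 (without KO 3) to 2.68 (without WT 2) when single libraries were left out. Deviations of same-numbered libraries from their group means correlated at 0.43, -0.68 and -0.58. Each group mean holds KO 3 or WT 2, which stand apart and differ in replicate number. These correlations therefore cannot show whether the replicate numbers pair the samples. With the replicate block, the log2 fold change was -0.071 for Syt1, -0.24 for Nefl, -0.16 for Tubb3, and under limma-voom it was -0.036 for Tubb3. Without WT 2 and KO 3 together it was -0.14 for Snap25, -0.47 for Syt1, -0.37 for Nefl, -0.21 for Prph, -0.50 for Tubb3, -0.17 for Stmn2, -0.11 for Kif1a, -0.11 for Gap43, -0.11 for Elavl4, -0.19 for Uchl1, -0.34 for Chrna3. When 1 library at a time was left out, the log2 fold change spanned Snap25 -2.53 to 3.59, Syt1 -2.54 to 2.79, Syp -1.58 to 2.57, Nefl -2.75 to 3.10, Prph -2.68 to 3.26, Tubb3 -2.40 to 2.54, Map1b -0.35 to 1.02, Stmn2 -2.33 to 2.87, Kif1a -1.11 to 1.55, Gap43 -2.64 to 3.31, Elavl4 -2.34 to 2.95, Uchl1 -1.73 to 2.28, Chrna3 -2.46 to 2.85, each lowest without KO 3, which alone turned the sign of these 13 genes among the left-out libraries. Stx1a kept its sign in every setting, but its log2 fold change ranged from 0.060 (without KO 3) to 0.76 (without KO 2) and was 0.12 without WT 2 and KO 3. Scaling by total counts put the median ratio of KO 3 to WT 2 at 1.58 and the median fold of WT 2 over the other 4 at 12.9. The causes of the changes under limma-voom, DESeq2 and the block were not tested, while the left-out libraries differ by construction. Each of the 36 genes had at least 22 reads in every library, and KO 3 and WT 2 carried most of the reads of the 36 genes in their groups.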
